A study of Homo sapiens with 4 samples.

Results

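The genes described here encode Fc receptors of the myeloid cell surface, the small adaptor chains that carry immunoreceptor tyrosine-based activation motifs (ITAMs), and the kinase that reads those motifs. The 8 genes were chosen by symbol, with earlier results of these data known, from a deposited table of 27800 gene symbols: FCGR1A, FCGR2A, FCGR2B, FCGR3A, FCGRT, FCER1G, TYROBP and SYK. Each of the 8 symbols was present once.

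Fc receptors bind the constant part of antibodies and couple a phagocyte to antibody-coated targets. The high-affinity receptor CD64 (FCGR1A) and CD16 (FCGR3A) have no signalling motif of their own and pair with the common gamma chain (FCER1G), whereas CD32A (FCGR2A) carries an ITAM in its own tail. Src-family kinases phosphorylate the ITAM, the kinase SYK docks on it, and phagocytosis and cytokine release follow. CD32B (FCGR2B) carries an inhibitory motif instead and recruits the phosphatase SHIP1. DAP12 (TYROBP) is an ITAM adaptor for other myeloid receptors such as the TREM family. The neonatal Fc receptor (FCGRT) signals through no ITAM. It pairs with beta-2-microglobulin and returns IgG from endosomes to the surface.

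Transcript levels were measured in MOLM-13, an established human acute myeloid leukaemia line of monocytic character that carries a KMT2A-MLLT3 fusion. All 4 libraries came from cells that received lentivirus with CRISPR-Cas9, 2 of them with sgKAT6A, directed at the histone acetyltransferase gene KAT6A, and 2 of them with the vector labelled EV. The sources used here give neither the guide sequence nor the number of guides, and neither what EV contains nor when cells were harvested. The labels do not say whether replicates were separate cultures, so the tests measure only the spread between these libraries. KAT6A itself was at 12.2 and 10.8 TPM in the sgKAT6A libraries, replicates 1 and 2, against 16.2 and 16.7 TPM in the EV libraries, a log2 difference of -0.48 (adjusted p = 0.784 by limma). TPM is a gene's share of a library corrected for transcript length, and it keeps no read depth, so the depth behind each value is unknown.

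Of the 8 genes, 5 lie on chromosome 1. FCER1G (161215295 to 161219245) lies 286 kb before a cluster that holds FCGR2A (161505457 to 161524048), FCGR3A (161541759 to 161550737) and FCGR2B (161647243 to 161678654), with FCGR2C and FCGR3B between the last pair. FCGR1A (149782694 to 149800609) lies apart from them. On chromosome 19, TYROBP spans 35904403 to 35908295 and FCGRT 49512661 to 49526428, and SYK spans 90801600 to 90898549 on chromosome 9. These positions are from RefSeq on GRCh38.p14.

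RefSeq promoter windows were matched for all 8 genes, and the 250 bases before each gene's outermost start were searched. FCGR1A and FCGR2A share a run of 20 bases in these windows, the longest run shared by any pair of the 8. It ends 32 bases before the FCGR1A start and 31 bases before the FCGR2A start, and among 35116 windows of the same length only those of these 2 genes hold it. On its reverse strand it contains GAGGAA, the core letters of sites bound by the myeloid factor PU.1. These letters, searched on both strands, were in the windows of 3 of the 8 genes (FCGR1A, FCGR2A and TYROBP) and in 23.6% of all windows. The 3 windows with GAGGAA are shown 5′ to 3′ along the gene, with the shared run in capitals for the receptor genes and GAGGAA or its reverse complement in capitals for TYROBP. They span chr1:149782444-149782693 (plus strand), chr1:161505207-161505456 (plus strand) and chr19:35908296-35908545 (minus strand).
FCGR1A: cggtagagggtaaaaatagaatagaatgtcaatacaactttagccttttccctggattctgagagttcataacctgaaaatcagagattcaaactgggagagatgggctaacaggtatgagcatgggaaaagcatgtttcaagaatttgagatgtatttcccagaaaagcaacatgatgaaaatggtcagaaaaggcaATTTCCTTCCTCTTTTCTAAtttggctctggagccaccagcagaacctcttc
FCGR2A: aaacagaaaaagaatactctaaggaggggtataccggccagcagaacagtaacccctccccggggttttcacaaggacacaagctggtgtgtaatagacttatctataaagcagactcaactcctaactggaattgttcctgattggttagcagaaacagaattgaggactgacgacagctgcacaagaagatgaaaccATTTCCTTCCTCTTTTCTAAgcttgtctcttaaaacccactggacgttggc
TYROBP: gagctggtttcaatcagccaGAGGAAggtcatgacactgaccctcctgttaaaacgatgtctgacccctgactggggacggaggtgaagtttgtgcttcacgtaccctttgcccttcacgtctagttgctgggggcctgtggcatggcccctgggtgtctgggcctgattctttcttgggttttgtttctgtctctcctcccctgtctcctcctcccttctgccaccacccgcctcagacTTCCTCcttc

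No gene of the table passed the test between sgKAT6A and EV, these 8 included. Values were compared as log2(TPM + 1) with limma over the 12603 genes that averaged 1 TPM or more, and 0 of them (0.0%) had an adjusted p under 0.05, while 459 (3.64%) had an unadjusted p under 0.05. All 8 genes met the filter on low values, FCGR3A solely through 1 sgKAT6A library, and 0 of the 8 had an unadjusted p under 0.05. With 2 libraries a group, the smallest two-sided p of an exact permutation test is 0.333.

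The gap between the replicates of a group was as large as most group differences. In size, the gap on the log2(TPM + 1) scale exceeded the group difference for 7 of the 8 genes between the sgKAT6A replicates, and for 5 of the 8 between the EV replicates. EV replicate 1 was the lowest library for all 8, and sgKAT6A replicate 2 the highest for all but SYK. Between these extremes, 7 of the 8 were lower in sgKAT6A replicate 1 than in EV replicate 2, TYROBP being the exception. TYROBP was therefore the 1 gene of the 8 whose groups did not overlap, with sgKAT6A higher, against 14.4% of all genes tested. In all, 6 of the 8 followed 1 order of libraries from low to high, EV replicate 1, sgKAT6A replicate 1, EV replicate 2 and sgKAT6A replicate 2, as did 15.5% of all genes tested. Within both replicate numbers, 7 of the 8 were higher in sgKAT6A, against 32.0% of all genes tested, but the labels do not say that the numbers pair the libraries. The median log2 difference of the 8, sgKAT6A minus EV, was 0.66, beside -0.02 over all genes tested. It was 0.093 without sgKAT6A replicate 2, 0.14 without EV replicate 1, 1.00 without sgKAT6A replicate 1 and 1.07 without EV replicate 2.

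**Figure D1:**
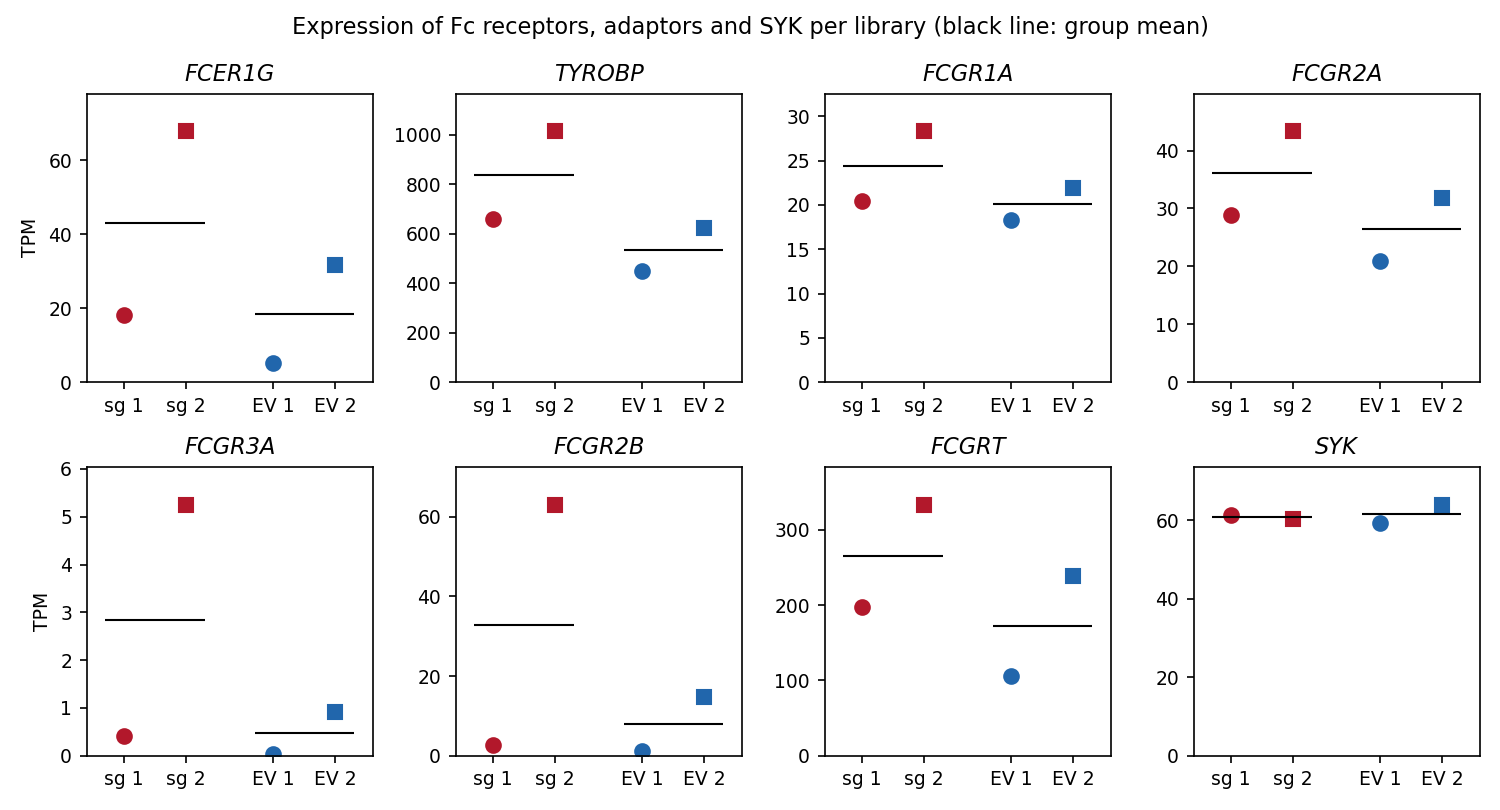
Expression in TPM (vertical axes, each from 0) of the 8 genes in each library, sgKAT6A in red and EV in blue, circles for replicate 1 and squares for replicate 2, with the group mean as a black line. TYROBP is the gene whose groups do not overlap, SYK lies between 59.1 and 63.9 TPM in every library, and the others overlap because EV replicate 2 exceeds sgKAT6A replicate 1.

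Among the adaptors, TYROBP was the most abundant of the 8 genes. It was at 661 and 1014 TPM in the sgKAT6A libraries, replicates 1 and 2, against 447 and 624 TPM in the EV libraries. Both sgKAT6A libraries were above both EV libraries, the nearest pair being sgKAT6A replicate 1 and EV replicate 2. The log2 difference of 0.63 ± 0.29 (SE; 95% interval -0.18 to 1.45) did not pass (adjusted p = 0.784 by limma). It was 0.56 within the replicates numbered 1 and 0.70 within those numbered 2, and it was 0.32 without sgKAT6A replicate 2 and 0.39 without EV replicate 1. In each library TYROBP ranked between the 98.2 and the 99.0 percentile of the genes tested.

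HCST, the neighbour of TYROBP, encodes DAP10, an adaptor with a PI3-kinase binding motif in place of an ITAM. The genes end towards each other, 25 bases apart. HCST was at 30.5 and 55.8 TPM in the sgKAT6A libraries, against 20.9 and 30.7 TPM in the EV libraries, with a log2 difference of 0.68 (adjusted p = 0.784 by limma). The groups of HCST overlapped narrowly, and the difference came to 0.26 when sgKAT6A replicate 2 was left out and to 0.42 when EV replicate 1 was and to 1.11 when sgKAT6A replicate 1 was. TYROBP exceeded HCST by a ratio of 21.7 and 18.2 in the sgKAT6A libraries and of 21.4 and 20.3 in the EV libraries, so the ratio of these adaptors varied little while the level of each roughly followed the libraries. No source used here says whether counting was stranded.

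FCER1G was far more variable than TYROBP. It was at 18.1 and 67.9 TPM with sgKAT6A, against 5.07 and 31.6 TPM with EV. Both libraries numbered 2 were above both numbered 1, and the groups overlapped. The log2 difference of 1.37 ± 1.09 (SE; 95% interval -1.66 to 4.39) did not pass (adjusted p = 0.786 by limma). It was 0.15 without EV replicate 1, 0.44 without sgKAT6A replicate 2, 2.29 without sgKAT6A replicate 1 and 2.58 without EV replicate 2. TYROBP exceeded FCER1G by a ratio of 36.6 and 14.9 in the sgKAT6A libraries and of 88.2 and 19.7 in the EV libraries. The balance of the ITAM adaptors thus differed between libraries more than that of TYROBP and HCST did.

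Of the activating receptors, FCGR1A, encoding CD64, varied least. It was at 20.4 and 28.3 TPM with sgKAT6A, against 18.2 and 21.9 TPM with EV, with overlapping groups and a log2 difference of 0.26 ± 0.21 (SE, adjusted p = 0.792 by limma). Without sgKAT6A replicate 2 the difference was 0.03. Receptor and partner chain were not in a fixed proportion. The ratio of FCER1G to the sum of FCGR1A and FCGR3A was 0.866 and 2.02 with sgKAT6A and 0.278 and 1.39 with EV, below 1 in both libraries numbered 1 and above 1 in both numbered 2.

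FCGR2A, encoding CD32A, was at 28.9 and 43.4 TPM with sgKAT6A, against 21.0 and 31.8 TPM with EV. The groups overlapped, and the log2 difference was 0.44 ± 0.31 (SE, adjusted p = 0.784 by limma). Within the replicates numbered 1 and 2 the FCGR2A difference was 0.44 and 0.43, the most even of the 7 genes with higher values in sgKAT6A. Without sgKAT6A replicate 2 or without EV replicate 1 the group difference was 0.15. It was 0.72 without sgKAT6A replicate 1 and 0.73 without EV replicate 2.

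FCGR3A, encoding CD16, was scarce. It was listed at 0.410 and 5.25 TPM with sgKAT6A, against 0.0254 and 0.923 TPM with EV. It reached 1 TPM with sgKAT6A replicate 2 alone, and the groups overlapped. The log2 difference of 1.08 ± 0.86 (SE, adjusted p = 0.786 by limma) was 0.01 without that library and was 2.21 with a pseudocount of 0.1, so its size depended on the pseudocount. FCGR3B, a near-identical copy expressed in neutrophils, was listed at 0 in all 4 libraries.

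FCGR2B, the inhibitory receptor, spanned the widest range of the 8 genes. It was at 2.56 and 63.0 TPM with sgKAT6A, against 1.06 and 14.7 TPM with EV. Both libraries numbered 1 were low and both numbered 2 were high, in each group. The log2 difference of 1.41 ± 1.81 (SE; 95% interval -3.62 to 6.44) did not pass (adjusted p = 0.837 by limma). The gap between replicates was 4.17 on the log2 scale in sgKAT6A and 2.93 in EV, both larger than the group difference. The sign of the difference turned without sgKAT6A replicate 2 (-0.68) and without EV replicate 1 (-0.06). The span of FCGR2B between its highest and lowest library, 4.96 on the log2 scale, was at the 99.8 percentile of all genes tested.

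**Figure D2:**
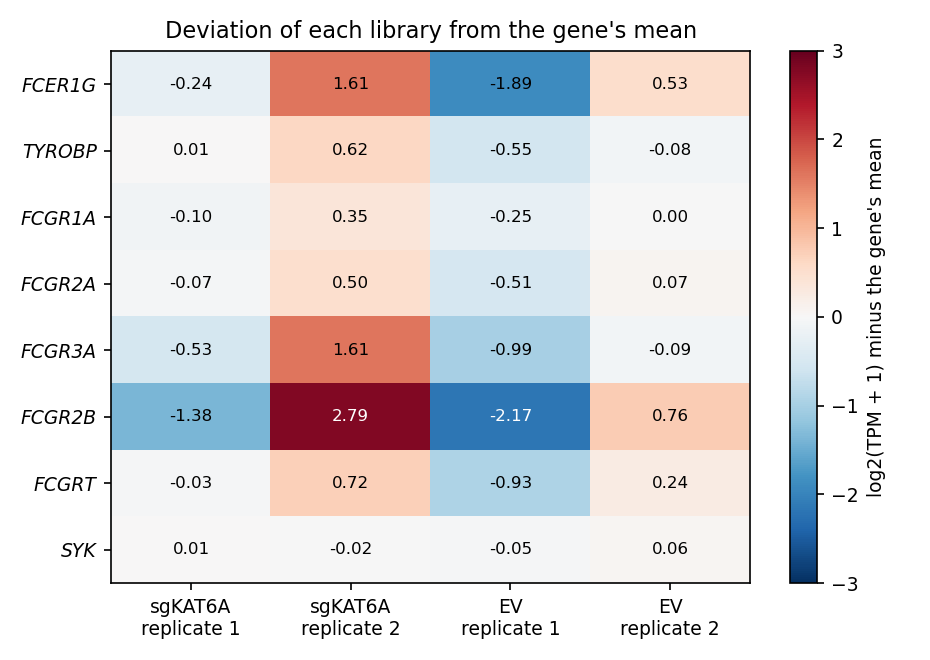
Each library's log2(TPM + 1) minus the mean of that gene over the 4 libraries, with the value printed in each cell (red above the mean, blue below). FCGR2B, FCER1G and FCGR3A have the widest range, and the SYK row lies within 0.11 from end to end.

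Transcripts of the activating CD32 gene FCGR2A exceeded those of the inhibitory FCGR2B in every library except sgKAT6A replicate 2. FCGR2A exceeded FCGR2B by a ratio of 11.3 in sgKAT6A replicate 1 and was below it, at 0.688, in sgKAT6A replicate 2. In EV the ratio of FCGR2A to FCGR2B was 19.7 in replicate 1 and 2.16 in replicate 2. Within each replicate number the ratio was lower in the sgKAT6A library, but sgKAT6A replicate 1 was far above EV replicate 2, so the groups overlapped. FCGR2C, which RefSeq lists as a transcribed pseudogene, was at 0.957 and 15.5 TPM with sgKAT6A, against 0.209 and 4.93 TPM with EV. With FCGR2C added to FCGR2B, the ratio was 8.20 and 0.552 in sgKAT6A and 16.5 and 1.62 in EV.

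**Figure D3:**
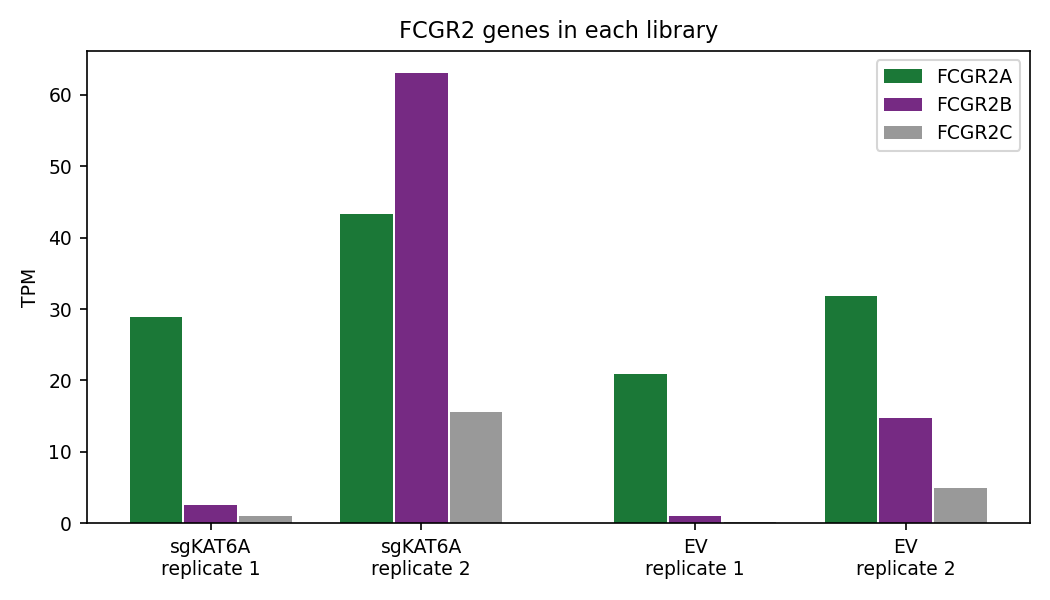
TPM of FCGR2A, FCGR2B and FCGR2C in each library, as bars from 0. FCGR2A is the highest of these genes in 3 libraries, and FCGR2B at 63.0 TPM exceeds FCGR2A at 43.4 TPM with sgKAT6A replicate 2.

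Reads of these receptor genes can be divided among copies. In the transcripts of GENCODE 29, 61.8% of the distinct 31-base words of FCGR1A also occur in transcripts of another gene, mostly FCGR1B, and the share is 40.3% for FCGR3A (FCGR3B), 24.0% for FCGR2A and 14.3% for FCGR2B (mostly FCGR2C for both). The share of such words was 10.2% for FCER1G, 1.89% for SYK, 0.326% for FCGRT and 0 for TYROBP. Levels of single FCGR genes are therefore uncertain by the way Salmon divided such reads, and the annotation the authors used may differ from GENCODE 29. FCGR1B was at 3.02 and 5.51 TPM with sgKAT6A, against 3.46 and 3.65 TPM with EV, and FCGR1CP at 4.13 and 3.80 TPM, against 2.48 and 2.94 TPM. The summed FCGR2 genes were at 32.4 and 122 TPM with sgKAT6A, against 22.2 and 51.5 TPM with EV, with a log2 difference of 0.88, and the summed FCGR1 genes at 27.6 and 37.6 TPM, against 24.2 and 28.5 TPM, with a log2 difference of 0.29.

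FCGRT, encoding the heavy chain of the neonatal Fc receptor, was the second most abundant of the 8. It was at 197 and 333 TPM with sgKAT6A, against 105 and 239 TPM with EV. The groups overlapped, and the log2 difference was 0.69 ± 0.51 (SE, adjusted p = 0.784 by limma). It was 0.10 without EV replicate 1, 0.31 without sgKAT6A replicate 2, 1.07 without sgKAT6A replicate 1 and 1.28 without EV replicate 2. B2M, its light chain, was at 1205 and 1954 TPM with sgKAT6A, against 1080 and 1640 TPM with EV, and exceeded FCGRT in every library, by a ratio of 6.11 and 5.86 in sgKAT6A and of 10.3 and 6.86 in EV. EV replicate 1 had the largest ratio and the lowest FCGRT.

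SYK did not follow the other genes. It was at 61.3 and 60.1 TPM with sgKAT6A, against 59.1 and 63.9 TPM with EV, a span of 0.11 on the log2 scale that was at the 2.79 percentile of all genes tested. The log2 difference of -0.02 ± 0.11 (SE, adjusted p = 0.968 by limma) had a 95% interval of -0.34 to 0.30, narrower than that of any other of the 8 genes. Its sign was positive, between 0.01 and 0.05, under median-of-ratios scaling, quantile normalization and rescaling to protein-coding genes. The ITAM adaptors FCER1G and TYROBP together exceeded SYK by a ratio of 11.1 and 18.0 in the sgKAT6A libraries and of 7.65 and 10.3 in the EV libraries. These ratios stood narrowly apart between the groups, at 11.1 in sgKAT6A replicate 1 and 10.3 in EV replicate 2. TYROBP makes up most of the sum, so this repeats the separation of TYROBP. Of all genes tested, 14.4% were separated with sgKAT6A higher.

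**Figure D4:**
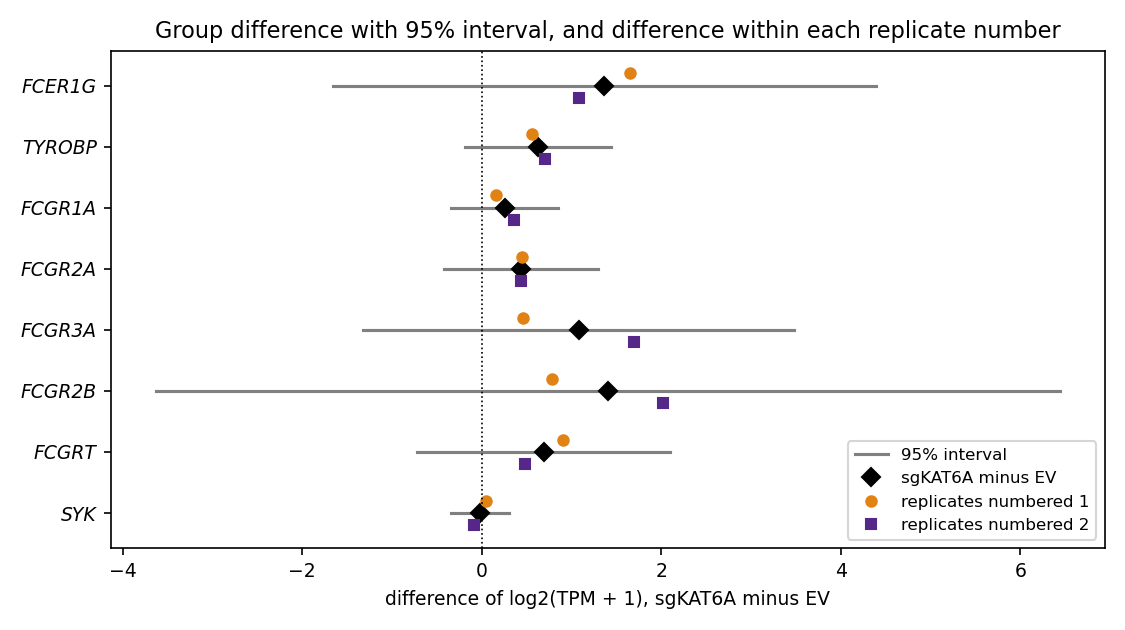
Difference of log2(TPM + 1), sgKAT6A minus EV, for each gene: the group difference (black diamond) with its 95% interval (grey line) from limma, and the differences within the replicates numbered 1 (orange) and 2 (purple). Every interval includes 0, those of SYK and FCGR1A are the narrowest, and SYK is the gene whose differences within the numbers have opposite signs (0.05 and -0.09).

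The order of the levels was the same in both groups at the top. TYROBP was above FCGRT and FCGRT above SYK in TPM, with no overlap of their libraries in either group. FCGR3A was the lowest in both groups, apart from its neighbour. In sgKAT6A the means then ran from SYK (60.7 ± 0.850 TPM) through FCER1G (43.0 ± 35.2), FCGR2A (36.1 ± 10.2) and FCGR2B (32.8 ± 42.8) to FCGR1A (24.4 ± 5.57 TPM, SD, n = 2), and no neighbours in this run differed beyond the spread of their libraries. In EV, SYK (61.5 ± 3.38 TPM) stood above FCGR2A (26.4 ± 7.69), FCGR1A (20.1 ± 2.57), FCER1G (18.3 ± 18.7) and FCGR2B (7.90 ± 9.67 TPM, SD, n = 2), and the last 4 overlapped from neighbour to neighbour.

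In the list of other Fc receptor genes, 10 of 20 present in the table were tested, 0 passed in either direction, and the median log2 difference was 0.39, beside -0.02 over all genes tested. The 10 included B2M, the light chain of the neonatal receptor. They also included the copies FCGR1B, FCGR1CP and FCGR2C, whose transcripts share 31-base words with FCGR1A, FCGR2A or FCGR2B. The median of EV replicate 2 minus EV replicate 1 was 0.67 over the 10, larger than their median group difference. FCER2, the low-affinity IgE receptor CD23, was at 67.8 and 150 TPM with sgKAT6A, against 32.6 and 69.1 TPM with EV, with a log2 difference of 1.07 (adjusted p = 0.784 by limma) that came to 0.50 when sgKAT6A replicate 2 was left out, to 0.54 when EV replicate 1 was and to 1.64 when sgKAT6A replicate 1 was. FCER2 exceeded each IgG receptor gene of the FCGR1 to FCGR3 families in every library. FCAR, the IgA receptor that also pairs with FCER1G, was at 28.5 and 47.9 TPM with sgKAT6A, against 18.3 and 41.0 TPM with EV. FCER1A, the alpha chain of the mast cell IgE receptor, was at 0.405 and 0.321 TPM with sgKAT6A and at 0.427 and 0.385 TPM with EV, so that partner of FCER1G was near 0.

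Receptors that signal through FCER1G, TYROBP or a related motif had a median log2 difference of 0.50 over the 14 of 33 tested, and 0 passed. Of the 14, 2 had sgKAT6A above EV and 1 sgKAT6A below EV without overlap, where all genes tested gave 14.4% and 23.2%. The library order from EV replicate 1 to sgKAT6A replicate 2 given above held for 7 of the 14, against 15.5% of all genes tested. Within both replicate numbers 9 were higher in sgKAT6A, against 32.0%. The median of EV replicate 2 minus EV replicate 1 was 0.96 over the 14, larger than their median group difference. LILRA5, an activating leukocyte receptor that pairs with FCER1G, was at 5.20 and 15.7 TPM with sgKAT6A, against 1.36 and 3.19 TPM with EV, without overlap. LILRA2 was at 39.5 and 54.0 TPM with sgKAT6A, against 30.5 and 33.0 TPM with EV, also without overlap. TREM2, a lipid-sensing partner of TYROBP, was at 35.2 and 55.1 TPM with sgKAT6A, against 14.3 and 56.1 TPM with EV, and its groups overlapped. SIRPB1, another TYROBP partner, was at 36.8 and 26.6 TPM with sgKAT6A, against 28.7 and 27.8 TPM with EV. PILRB had lower values without overlap, at 2.57 and 2.01 TPM with sgKAT6A, against 2.88 and 3.55 TPM with EV.

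Kinases and effectors around SYK lay close to the median of all genes. Their median log2 difference was 0.06 over the 33 of 38 tested, 0 passed, and 2 had sgKAT6A above EV and 4 sgKAT6A below EV without overlap, where all genes tested gave 14.4% above and 23.2% below. CARD9, which links SYK to NF-kB, was at 5.83 and 5.42 TPM with sgKAT6A, against 3.89 and 4.26 TPM with EV. GAB2, a docking protein, was at 19.9 and 28.1 TPM with sgKAT6A, against 15.0 and 18.9 TPM with EV. BTK, a Tec-family kinase, had lower values, at 51.6 and 51.9 TPM with sgKAT6A, against 58.7 and 57.6 TPM with EV. The abundant RAC2, LAT2 and GRB2 had log2 differences of -0.09, 0.02 and 0.10.

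Inhibitory receptors and brakes had a median log2 difference of 0.24 over the 26 of 30 tested, and 0 passed. Of the 26, 6 had sgKAT6A above EV and 2 sgKAT6A below EV without overlap, and 21 were higher in sgKAT6A within both replicate numbers, where all genes tested gave 14.4%, 23.2% and 32.0%. The library order given above held for 14 of the 26, against 15.5% of all genes tested. The median of EV replicate 2 minus EV replicate 1 was 0.46 over the 26, larger than their median group difference. CBL, a ubiquitin ligase that marks activated kinases, was at 16.2 and 14.9 TPM with sgKAT6A, against 10.3 and 13.2 TPM with EV, and its relative CBLB at 2.94 and 2.94 TPM, against 1.93 and 2.29 TPM. SIGLEC7 was at 17.4 and 23.5 TPM with sgKAT6A, against 8.25 and 17.0 TPM with EV. PTPN6, the phosphatase SHP-1 that docks on inhibitory motifs, was at 214 and 268 TPM with sgKAT6A, against 203 and 298 TPM with EV. DOK2 and CD33 overlapped between the groups too, with log2 differences of 0.17 and -0.00106.

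**Figure D5:**
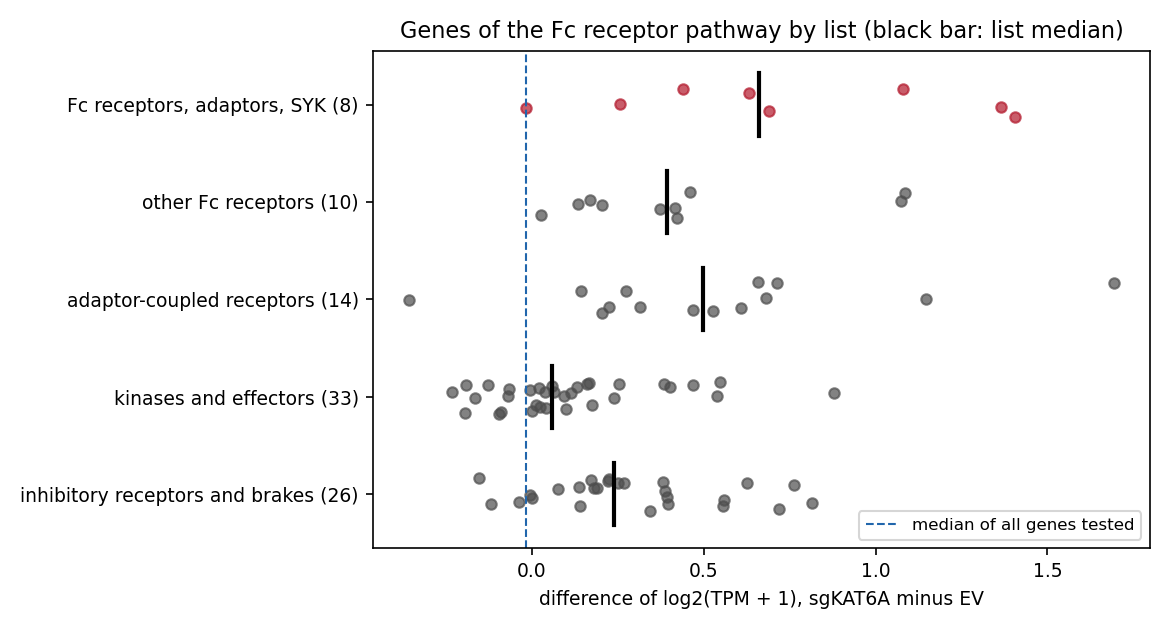
Difference of log2(TPM + 1), sgKAT6A minus EV, of each gene tested in 5 lists (number tested in brackets), with the list median as a black bar and the median of all genes tested as a dashed line at -0.02. The medians are 0.66, 0.39, 0.50, 0.06 and 0.24 from top to bottom, and no point passed the test.

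The profile of each gene over the 4 libraries was compared with those of all protein-coding genes tested, as the root mean square distance of log2(TPM + 1) after removal of the gene's mean. The nearest profiles to FCER1G were those of ITGAM, encoding the integrin CD11b (0.080), and ALOX5, encoding 5-lipoxygenase (0.12). Nearest to FCGR2B were the chemokine gene CCL2 (0.23) and OLIG1 (0.25), and nearest to FCGR3A were LY96, encoding the TLR4 co-receptor MD-2 (0.12), and BIRC7 (0.18). The nearest to FCGRT were KCNQ3 (0.028) and DPEP2 (0.031), to TYROBP HSD3B7 (0.014) and PARP9 (0.016), to FCGR1A WBP2 (0.0087), to FCGR2A MYO9B (0.014) and ALDH3B1 (0.015), and to SYK C3orf38 (0.0024) and SDHC (0.0061). With 4 libraries, a small distance is a description of these libraries. The distance was not scaled to a gene's span, which was 0.11 for SYK and 4.96 for FCGR2B. Distances of different genes are therefore not comparable with each other.

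Monocyte markers differed between the same libraries. Of 15 such markers, 13 were tested and all 13 had a positive log2 difference, with a median of 0.91 and 0 called, and 10 of the 13 followed the library order that 6 of the Fc receptor and adaptor genes showed. The 15 summed to 12176 and 12124 TPM with sgKAT6A, against 7645 and 9746 TPM with EV, without overlap. LYZ, encoding lysozyme, makes up most of that sum, at 10975 and 9500 TPM with sgKAT6A, against 7060 and 8068 TPM with EV. The sum without LYZ overlapped between the groups, at 1201 and 2624 TPM with sgKAT6A, against 585 and 1679 TPM with EV. CD14 was at 3.04 and 54.3 TPM with sgKAT6A, against 1.08 and 29.3 TPM with EV, and CD163 and MRC1 were under 1 TPM in every library. In bulk RNA, more cells of a mature type and more RNA per cell cannot be told apart, and the part of monocytic maturation in the Fc receptor values was not tested. Transcripts that mark other cell types using these receptors were partly present in this line. The B cell list summed to 2.09 and 2.26 TPM with sgKAT6A and 1.07 and 1.96 TPM with EV, with 7 of its 8 genes under 1 TPM in every library and MS4A1 and CR2 at 0. In the list for NK and T cells, CD2 was at 0 and CD3E, PRF1 and KLRF1 stayed under 1 TPM, as did 7 of its 12 genes in every library, while 4 averaged over 1 TPM. NKG7 was at 122 and 208 TPM with sgKAT6A and at 93.1 and 151 TPM with EV, and NCAM1, encoding CD56, at 9.84 and 8.72 TPM with sgKAT6A and at 8.69 and 10.7 TPM with EV. CD3D was at 5.65 and 11.5 TPM with sgKAT6A and at 7.17 and 10.5 TPM with EV, and GNLY at 1.71 and 9.17 TPM with sgKAT6A and at 1.08 and 6.38 TPM with EV. The list summed to 141 and 241 TPM with sgKAT6A and 111 and 181 TPM with EV, and the mast cell and basophil list to 12.1 and 17.0 TPM with sgKAT6A and 9.50 and 12.3 TPM with EV. In the mast cell list, 3 of 8 genes averaged over 1 TPM: GATA2, TPSAB1 and TPSB2, between 1.32 and 7.48 TPM in single libraries. As all libraries came from the MOLM-13 line, these are levels of marker transcripts in that line. Their relation to the Fc receptor values was not tested.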

How the data were processed

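RNA from 2 sgKAT6A and 2 EV libraries was analysed, assigned by their titles. The authors deposited 1 table of TPM per gene symbol, in which each library sums to 1000000. Per the submitters' processing notes, Salmon and hg38 were used. The sources used here give no Salmon version, annotation or filter. TPM was used as log2(TPM + 1), which understates the change of low genes, for the 12603 genes that averaged 1 TPM or more. limma 3.58.1 (R 4.3.3) tested sgKAT6A against EV with a mean-variance trend and 2 residual plus 1.98 prior degrees of freedom, two-sided, with Benjamini-Hochberg adjustment over all genes tested. The test was checked on simulated data, with a pass mark set only at a spread far below that of these libraries. The check therefore does not tell how often a change would be found at the real spread. Genes and lists were chosen with earlier results of these data known. Besides the 8 genes, KAT6A, close paralogs, B2M and HCST, each list gave 3 genes by smallest unadjusted p and the 3 with the highest mean, and each of the 8 the 2 nearest profiles, of which the second for FCGR1A is not reported here. Where a library was left out, the filter was kept over all 4 and the lone library of a group was assumed to vary like the others. Gene classes and promoter windows came from RefSeq (GRCh38.p14), and transcripts from GENCODE 29.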

Additional observations from a re-analysis of the deposited data

How the results depend on the processing

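No gene was called with a pseudocount of 0.1 or 5, without a filter or with a mean of at least 5 TPM, under the scalings, without the trend, with paralogs summed or with any library left out (0 in each, lowest and highest 0), and the unadjusted count ran from 179 without EV replicate 1 to 1212 without sgKAT6A replicate 1. With a replicate block (the number in the titles), 15 genes were called by limma and 2417 had an unadjusted p under 0.05, none of the 15 being among the 8 genes, whose smallest adjusted p was then 0.146 (FCER1G and TYROBP). Under the block, 5 of the 8 had an unadjusted p under 0.05 by limma, against 19.2% of all genes: FCER1G (0.0011), TYROBP (0.0011), FCGRT (0.0054), FCGR2A (0.0094) and FCGR2B (0.011). The 8 were chosen with earlier results of these data known, and 6 of them followed 1 library order, so this count is only a description. Same-numbered libraries deviated together (r = 0.455 across genes), but the labels do not pair them and 2 pairs cannot settle it. The median difference stayed between 0.54 (pseudocount 5) and 0.72 (protein-coding genes only) under all settings that keep 4 libraries, over 7 values with the stricter filter and with paralogs summed and over 8 otherwise, and between 0.093 and 1.07 with 1 left out. FCGR2B ran from -0.68 to 3.49 with 1 library left out, and SYK from -0.072 to 0.038. SYK was 0.014 under median-of-ratios scaling, 0.048 under quantile normalization and 0.044 with protein-coding genes only. Median-of-ratios scaling raised all 8 differences by 0.025 to 0.035 and the protein-coding rescaling by 0.061 to 0.13, with SYK at 0.031 and 0.061, whereas quantile normalization moved the 8 by -0.18 to 0.066. The cause of the sign changes under quantile normalization and with a library left out was not tested. Among 42 other genes that the naming rule chose, the sign changed in 28 of 168 values with a library left out and in 10 of 367 under other settings. FCGR3A has no value with a mean of at least 5 TPM. Read depth is unknown, so the precision of low values such as FCGR3A could not be computed.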

Other observations

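Haemoglobin transcripts differed between libraries in another order than the Fc receptor genes. HBB was at 188 and 61.1 TPM with sgKAT6A replicates 1 and 2, against 38.6 and 192 TPM with EV replicates 1 and 2, and HBA1 at 189 and 116 TPM with sgKAT6A, against 67.3 and 201 TPM with EV. These genes were named after their values were seen.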
